A study of Mus musculus with 30 samples.

Results

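Lysosomal hydrolases and the membrane proteins of the lysosome were followed through a study of mouse osteoclasts, the multinucleated cells that resorb bone. The set holds 39 genes of the 45706 in the deposited tables: 10 proteases, 14 glycosidases and sulfatases, 7 lipid hydrolases, activators and phosphatase, and 8 membrane and transport proteins. They were chosen by name as listed lysosomal genes, with the osteoclast collagenase Ctsk left out. All 39 were found in the 5 tables, and all 39 passed the filter of a mean of at least 1 TPM (a level per transcript length, the unit having been read from the deposited values) among the 12614 genes tested.

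Lysosomes are acid compartments in which soluble hydrolases break down proteins, glycans and lipids taken up by endocytosis, phagocytosis or autophagy. Most soluble hydrolases are made in the secretory pathway and reach the lysosome by sorting receptors, and many of their genes share the transcription factors TFEB, TFE3 and MITF, which bind E-box sequences. In an osteoclast, lysosome-related vesicles fuse with the membrane that faces bone and release acid and proteases, among them cathepsin K, onto it.

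The study asked whether osteoclasts from mice of different ages, wild type or lacking the telomerase RNA gene Terc, differ in expression. All cells were derived from bone marrow macrophages of C57BL/6J mice and grown on bone slices with the cytokines M-CSF and RANKL, either for 2 days or until large multinucleated cells were present (large-cell cultures). The 30 libraries form 10 groups of 3. Wild-type groups were 2-day cultures at 6 and 20 months and large-cell cultures at 1, 6 and 20 months; Terc-/- groups were large-cell cultures at 1 and 6 months. The titles of 3 further large-cell groups carry a mark whose meaning was not stated: gaiwei for 1-month wild type, and 519 for 1-month and 6-month Terc-/-. The labels do not say whether replicates came from separate animals or cultures, so the p-values measure no more than the sample-to-sample spread, and that spread may be technical.

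Some libraries did not follow their labels in ways that touch the results. Osteoclast-defining Acp5 was 1860 to 12058 TPM in the 15 unmarked large-cell libraries, 16.9 to 186 TPM in the 6 2-day libraries and 70.0 to 147 TPM in the 9 marked libraries, so the marked libraries, though labelled as large-cell cultures, had Acp5 in the range of the 2-day ones. The summed level of the 8 macrophage markers was 4116 to 5965 TPM in the marked libraries against 656 to 2796 TPM in the unmarked large-cell ones. Adgre1, Cd14, Itgam and Fcgr1 were higher in every marked library than in any unmarked large-cell one. Csf1r (401 to 638 against 183 to 835 TPM), Cx3cr1 (20.4 to 86.4 against 45.1 to 129 TPM), Mertk and Mrc1 overlapped. Xist was 46.6 to 84.1 TPM in the 3 libraries from 1-month wild-type mice without a mark, against at most 0.254 TPM elsewhere, so for contrasts with that group sex cannot be told apart from age, genotype or mark. Terc, the deleted gene, was listed at 0 in every Terc-/- library but also in most wild-type ones (highest 1.13 TPM), so it did not check the genotype. Replicate 2 of the unmarked wild-type large-cell group at 6 months was the least like its group: its mean correlation with its own group was 0.910, against 0.933 and 0.952 for replicates 1 and 4. In these bulk samples, fewer cells of a type and less RNA per cell cannot be told apart.

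Promoter sequences are shown first for members that carry the E-box bound by the TFEB family, because many results below concern genes that moved together. Promoter windows of 250 bases before to 50 bases after the annotated start were given by RefSeq (build GRCm38.p6) for 34 of the 39 members. The palindrome CACGTG, which reads the same on both strands, occurred in windows of 10 members (29.4%: Ctsa, Ctsd, Ctsl, Lgmn, Gaa, Gla, Naglu, Sgsh, Lamp1 and Mcoln1), against 12.0% of the 9518 tested genes with a window. The longer palindrome TCACGTGA, which contains CACGTG, occurred in 4 members (11.8%), against 2.30% of those genes. The full CLEAR element (coordinated lysosomal expression and regulation), a palindrome that contains both, occurred in 0 of 34 members, against 0.841% of those genes. The sites of TCACGTGA before the start follow with 11 bases on each side, 5′ to 3′ on the gene's strand, with the motif in capitals.

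Ctsa (chr2:164833749-164833778, plus strand): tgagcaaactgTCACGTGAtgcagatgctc
Ctsd (chr7:142387908-142387937, minus strand): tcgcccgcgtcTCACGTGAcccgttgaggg
Gla (chrX:134601215-134601244, minus strand): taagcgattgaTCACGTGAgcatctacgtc
Gla (chrX:134601182-134601211, minus strand): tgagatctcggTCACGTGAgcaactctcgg
Mcoln1 (chr8:3500462-3500491, plus strand): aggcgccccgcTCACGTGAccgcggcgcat

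Counted from the RefSeq start of the same window, the motif began 13 bases before the start of Ctsa, 99 before that of Ctsd, 228 and 195 before that of Gla, and 46 before that of Mcoln1. Gla carried 2 sites before its start. Ctsa has 2 RefSeq windows, and the one at its outer start held none of the 3 motifs before or after that start. In GENCODE M21 the Ctsa, Ctsd and Mcoln1 sites lie inside the annotated gene, and both Gla sites lie upstream of it. Arsb and Gpnmb had the widest ranges of level among the members, and the bases upstream of their genes, shown next, held none of the 3 motifs; the Arsb stretch ends where GENCODE M21 places the gene's outermost start.

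Arsb (chr13:93771429-93771629, plus strand): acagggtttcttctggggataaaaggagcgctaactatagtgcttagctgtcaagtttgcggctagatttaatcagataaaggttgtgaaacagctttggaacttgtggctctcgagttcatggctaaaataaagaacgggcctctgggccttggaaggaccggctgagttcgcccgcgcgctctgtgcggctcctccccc
Gpnmb (chr6:49036268-49036517, plus strand): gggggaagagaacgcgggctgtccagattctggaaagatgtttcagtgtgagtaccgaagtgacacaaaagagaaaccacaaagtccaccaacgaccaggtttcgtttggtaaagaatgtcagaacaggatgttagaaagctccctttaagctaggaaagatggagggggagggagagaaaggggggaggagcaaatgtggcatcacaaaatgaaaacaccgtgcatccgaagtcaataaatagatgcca

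A match is a description of these letters only, and binding was not measured. In the comparison of 6-month large-cell with 2-day cultures described next, 9 of the 10 members with CACGTG were higher (median log2 difference 0.89), and so were 19 of the 24 without it (median 0.75).

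Every member was expressed in every library, and none was listed at 0. Together the 39 genes held 1.38% to 1.48% of all TPM in the 6-month 2-day libraries, 1.97% to 2.13% in the 20-month 2-day libraries and 1.72% to 3.99% in the unmarked large-cell libraries. The highest shares were in unmarked Terc-/- cells, 3.70% to 3.99% at 1 month and 3.23% to 3.24% at 6 months, above every wild-type library (at most 2.66%). In unmarked 1-month Terc-/- libraries Ctsd alone was 13990.5 to 15378 TPM of a sum of 36955 to 39894 TPM. In unmarked 1-month wild type Ctsd was 6375 to 7616 TPM of 25163 to 26565 TPM, so much of this difference in share lay in Ctsd. The marked groups held 2.24% to 2.64% (gaiwei wild type), 2.89% to 3.21% (519 Terc-/-, 1 month) and 2.02% to 2.17% (519 Terc-/-, 6 months). The 6-month 2-day group had the lowest group mean for 25 of the 39 members, and the unmarked 1-month Terc-/- group the highest for 14.

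**Figure D1:**
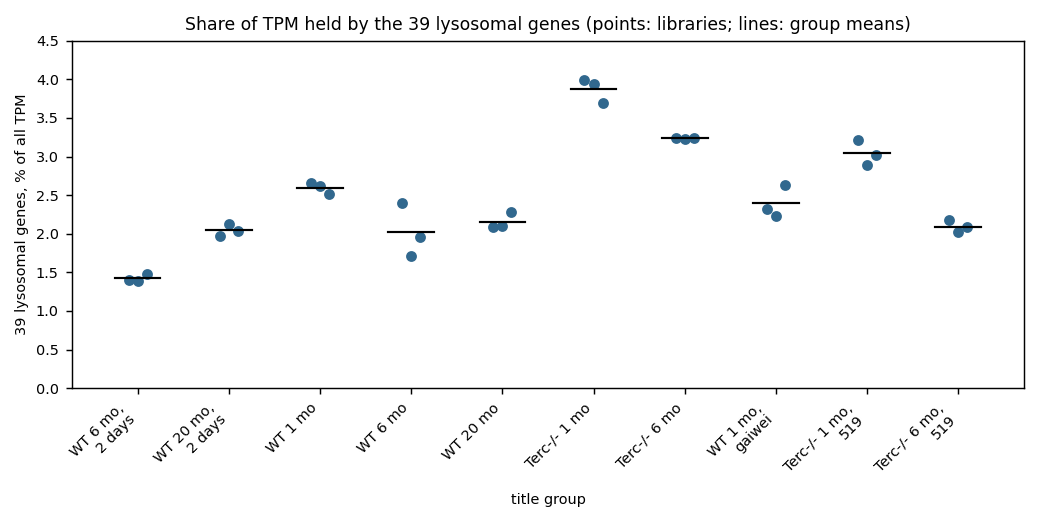
Share of all TPM (vertical axis, percent) held by the 39 lysosomal genes in each of the 10 title groups (horizontal axis), with 1 point per library and a line at each group mean. The unmarked Terc-/- libraries lie between 3.23% and 3.99%, above all wild-type libraries.

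By the mean over all 30 libraries the most abundant members were Ctsd (cathepsin D, an aspartic protease) and Ctss (cathepsin S, a cysteine protease of antigen-presenting cells) among the proteases, and Hexa (the alpha subunit of beta-hexosaminidase) and Gusb (beta-glucuronidase) among the glycosidases. Ctss and Ctsl, another cysteine protease, had nearly equal means (1738 and 1737 TPM), and Ctsl had the higher mean in 7 of the 10 groups. Psap, which encodes the precursor of the saposins that help lipid hydrolases, and Lipa, lysosomal acid lipase, led the lipid group. The tetraspanin Cd63 and Gpnmb, a glycoprotein of melanosomes, macrophages and osteoclasts, led the membrane group. Lamp1 had a higher mean than Gpnmb in 7 of the 10 groups, the exceptions being the unmarked 1-month wild-type and both unmarked Terc-/- groups. Ctsd ranged over libraries from 3864 to 15378 TPM and Hexa from 182 to 855 TPM. Members differed widely in how far their levels moved. The highest group mean was 23.3 times the lowest for Gpnmb, 18.6 times for Arsb (arylsulfatase B) and 5.83 times for Naglu (N-acetylglucosaminidase). At the other end stood the abundant membrane protein Lamp1 at 1.34 times, Asah1 (acid ceramidase) at 1.60 times and Ppt1 (palmitoyl-protein thioesterase) at 1.66 times.

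**Figure D2:**
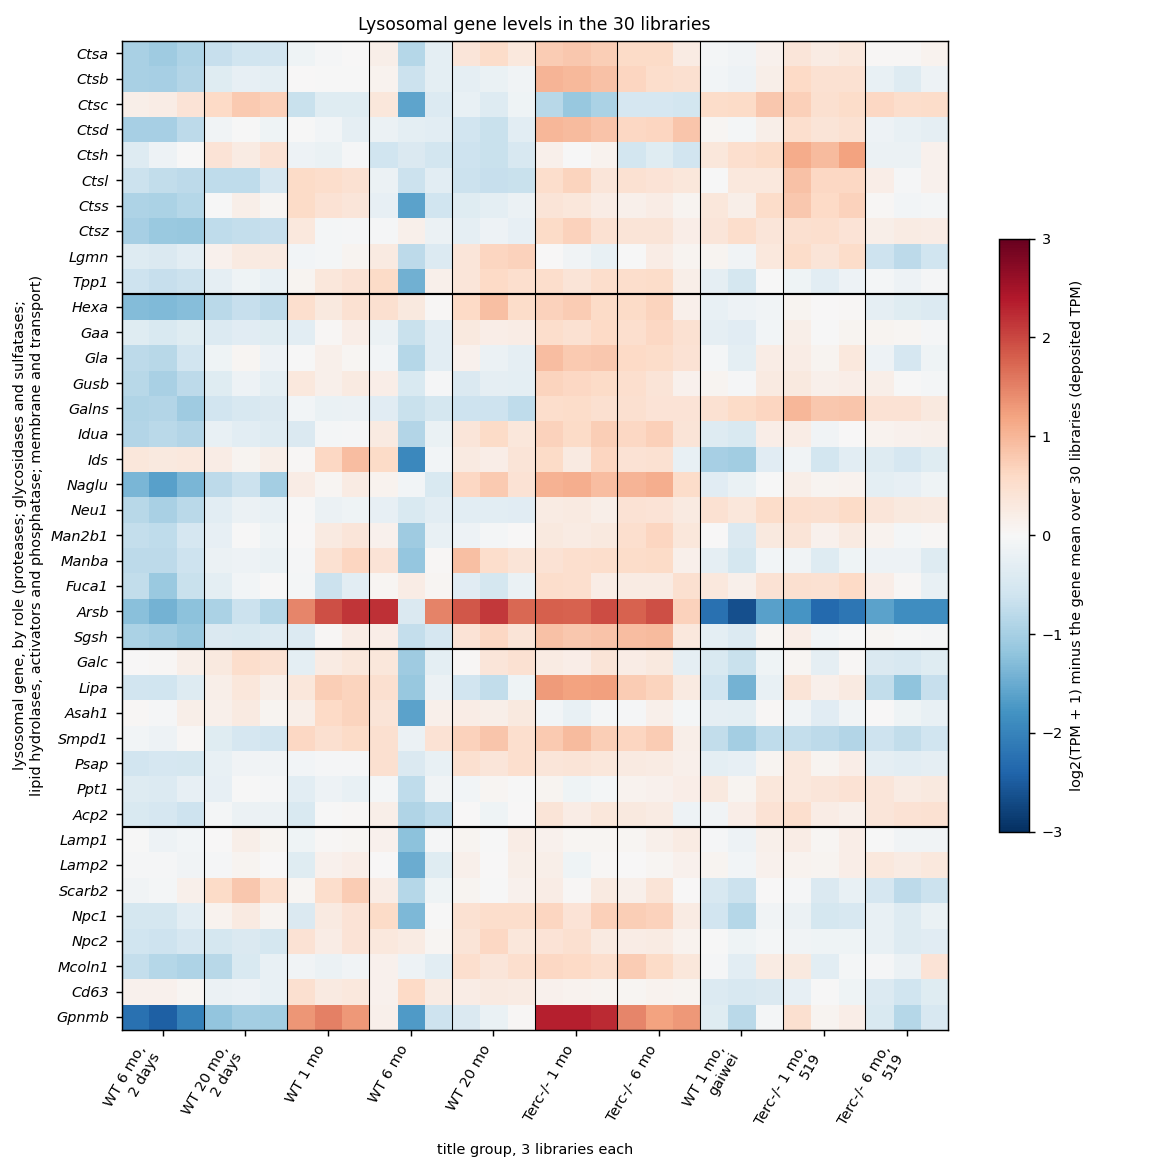
Levels of the 39 lysosomal genes (vertical axis, ordered by role) in the 30 libraries (horizontal axis, 10 title groups of 3), coloured by log2(TPM + 1) minus the gene's mean over the 30 libraries. Gpnmb and Arsb show the widest range, and replicate 2 of the unmarked 6-month wild-type large-cell group is lower than its neighbours for several genes, Arsb (22.5 TPM), Ids (3.79 TPM) and Asah1 (72.6 TPM) among them.

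The first comparison asks what happens to these genes as precursors become large cells. In wild-type 6-month cultures 31 of the 39 members were higher in large cells than at 2 days and 1 was lower, with a median log2 difference of 0.74 against -0.017 over all tested genes; 24.6% of all tested genes were called higher and 25.1% lower (49.8% in all). All differences are on the scale log2(scaled TPM + 1), which understates the change of low genes, and a gene was called at an adjusted p under 0.05 from limma with Benjamini-Hochberg adjustment over all 12614 genes. The rise covered 8 of 10 proteases, 13 of 14 glycosidases and sulfatases, 5 of 7 of the lipid group and 5 of 8 membrane proteins. The 4 largest rises were those of Arsb, Hexa, Gpnmb and Naglu.

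Arsb, which removes sulfate from dermatan and chondroitin sulfate, was 12.4, 10.9 and 12.6 TPM in the 6-month 2-day libraries and 145, 22.5 and 88.2 TPM in the large-cell ones. All 3 large-cell values lay above all 3 2-day values, replicate 2 being the lowest of them, and the difference was 2.74 ± 0.31 (adjusted p = 2.85e-07) on the log2 scale. Hexa, which acts on gangliosides and other glycoconjugates, was 185, 182 and 187 TPM at 2 days and 635, 557 and 462 TPM in large cells. The Hexa groups were well apart, with a log2 difference of 1.95 ± 0.16 (adjusted p = 2.73e-09). Gpnmb went from 163, 140.5 and 188 TPM to 866, 238 and 507 TPM, a log2 difference of 1.92 ± 0.20 (adjusted p = 6.91e-08), and Naglu, a heparan sulfate exoglycosidase, rose by 1.69 ± 0.17 from 16.2, 13.3 and 16.1 TPM to 46.9, 41.0 and 31.4 TPM (adjusted p = 4.88e-08).

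Other members that rose in 6-month large cells included Ctsz (a carboxypeptidase, log2 difference 1.45 ± 0.20), Fuca1 (alpha-fucosidase, 1.35 ± 0.21), Gusb (1.16 ± 0.11), Npc2 (a soluble cholesterol carrier, 1.17 ± 0.16), Mcoln1 (the TRPML1 calcium channel of the lysosomal membrane, 1.10 ± 0.18), Ctsb (1.07 ± 0.11) and Ctsd (1.06 ± 0.16). The 7 members called in neither direction were Ctsh, Ids, Galc, Asah1, Lamp1, Lamp2 and Scarb2, so 3 of the structural membrane proteins of the lysosome were among those without a call. Lamp1, with a log2 difference of 0.10 ± 0.13, was 871, 796 and 837 TPM at 2 days and 965, 378 and 870.3 TPM in large cells. Ctsc, the dipeptidyl peptidase that activates granule proteases of immune cells, was the single member that fell, at -0.44 ± 0.17 (adjusted p = 0.0307). Its level was 340.4, 348 and 400.4 TPM at 2 days and 378, 98.8 and 224 TPM in large cells, so the groups overlapped. Without replicate 2 of the large-cell group the Ctsc difference was -0.14 (adjusted p = 0.359), and the call also ended without replicate 2 (adjusted p = 0.0506) or replicate 3 (adjusted p = 0.112) of the 2-day group.

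In 20-month wild-type cultures the same contrast called 18 members higher and 4 lower, with a median of 0.24 against 0.0036 over all genes, where 18.7% of all tested genes were called higher and 17.5% lower (36.2% in all). All 18 were among the 31 called at 6 months. They were 4 of 10 proteases (Ctsa, Ctsz, Lgmn and Tpp1), 7 of 14 glycosidases and sulfatases (Hexa, Gaa, Idua, Naglu, Manba, Arsb and Sgsh), 2 of the lipid group (Smpd1 and Psap) and 5 membrane proteins (Npc1, Npc2, Mcoln1, Cd63 and Gpnmb). The Npc1 difference, 0.49 ± 0.19, was at the threshold, its adjusted p being 0.05 after rounding and just under it before. Arsb was 15.4, 19.3 and 16.6 TPM at 2 days and 115, 137 and 104 TPM in large cells, with no overlap and a log2 difference of 2.82 ± 0.31 (adjusted p = 1.47e-07). Hexa differed by 1.57 ± 0.16, Naglu by 1.55 ± 0.17 and Smpd1, acid sphingomyelinase, by 1.27 ± 0.13. Smpd1 was 26.1, 23.4 and 22.2 TPM at 2 days and 55.1, 60.5 and 48.4 TPM in large cells, so every large-cell value was above every 2-day value.

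The 4 members that fell at 20 months were Ctsh, Ctsc, Lipa and Scarb2. Ctsh, an aminopeptidase, was 289, 259.8 and 298 TPM at 2 days and 142, 137 and 156 TPM in large cells, a log2 difference of -0.83 ± 0.16 (adjusted p = 0.000232) with no overlap. Ctsc differed by -0.82 ± 0.17 (adjusted p = 0.000347), and Scarb2, the LIMP-2 receptor that carries glucocerebrosidase to the lysosome, by -0.45 ± 0.12 (adjusted p = 0.00371). Lipa, 265, 299.9 and 266 TPM at 2 days and 158, 142 and 215 TPM in large cells, differed by -0.58 ± 0.20 (adjusted p = 0.0248). The Lipa call ended without replicate 3 (-0.54, adjusted p = 0.0799) or 4 (-0.60, adjusted p = 0.0507) of the 2-day group, and without replicate 1 (-0.53, adjusted p = 0.0832) or 3 (-0.47, adjusted p = 0.121) of the large-cell group.

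The difference between the 20-month and the 6-month change was tested itself. It was negative for 15 members and positive for 2, against 12.6% of all tested genes called lower and 12.4% called higher in that test (25.0% in all). The 15 were Ctsb, Ctsd, Ctsh, Ctsl, Ctss, Ctsz, Gla, Gusb, Galns, Neu1, Man2b1, Fuca1, Lipa, Scarb2 and Gpnmb, 6 of them proteases and 6 of them glycosidases or sulfatases. The largest were Fuca1 at -1.45 ± 0.30 (adjusted p = 0.00102), Ctsd at -1.36 ± 0.23 (adjusted p = 0.000151), Lipa at -1.21 ± 0.28 (adjusted p = 0.00311) and Gusb at -1.10 ± 0.16 (adjusted p = 2.99e-05). With TPM as deposited the Lipa difference was -0.95 (adjusted p = 0.0895). Ctsd rose by 1.06 at 6 months and differed by -0.30 at 20 months (adjusted p = 0.162). Gaa, which breaks down lysosomal glycogen, and Smpd1 had the larger rise at 20 months, by 0.33 ± 0.10 (adjusted p = 0.0223) and 0.58 ± 0.19 (adjusted p = 0.0265). The Gaa and Smpd1 calls each ended on leaving out single libraries: for Gaa, replicate 2 of the 20-month 2-day, replicate 1 of the 20-month large-cell or replicate 1 of the 6-month 2-day group (0.30 to 0.31, adjusted p = 0.0529 to 0.0600); for Smpd1, replicate 3 or 4 of the 20-month 2-day, replicate 3 of the 20-month large-cell or replicate 3 of the 6-month 2-day group (0.49 to 0.55, adjusted p = 0.0575 to 0.0784).

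**Figure D3:**
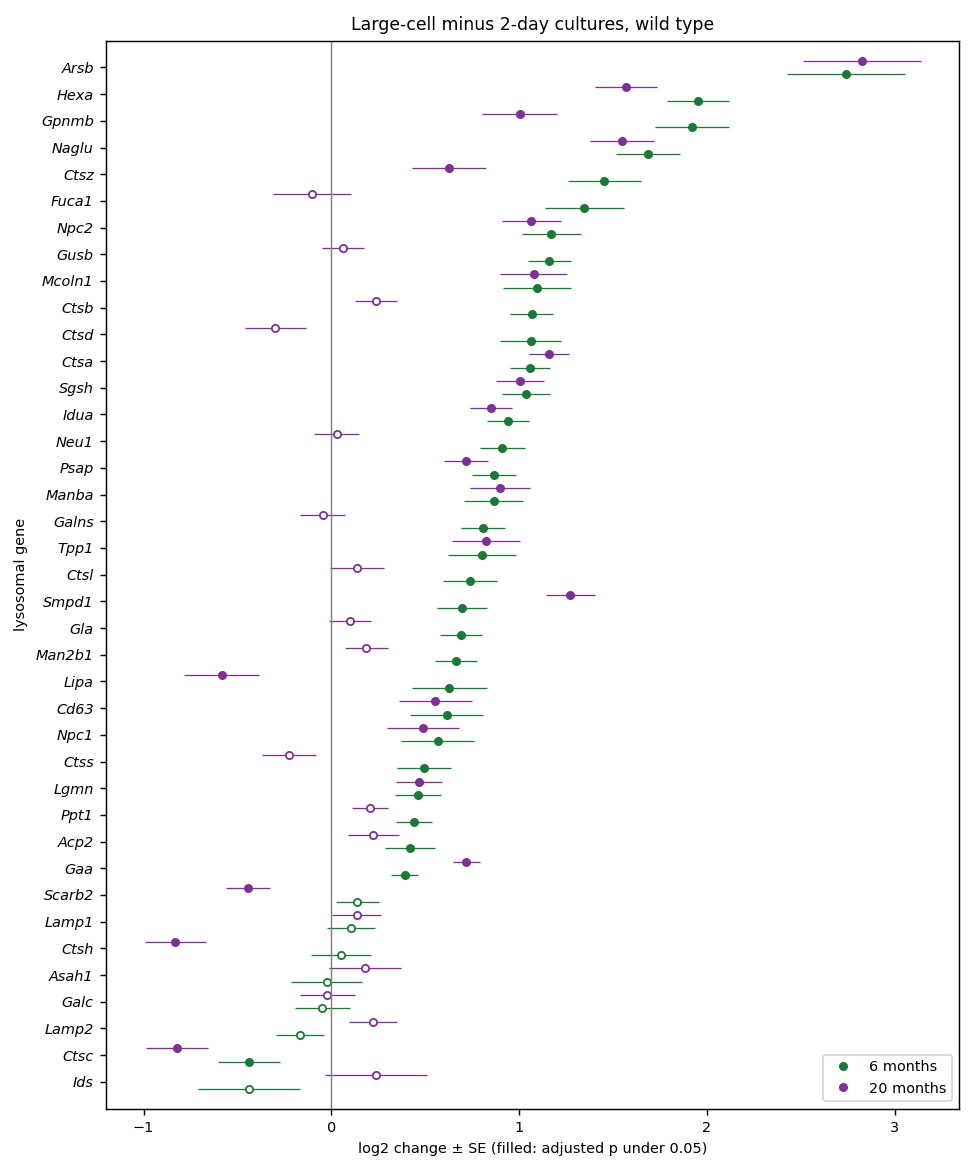
Log2 difference between large-cell and 2-day wild-type cultures (horizontal axis; bars are standard errors) for each lysosomal gene (vertical axis), at 6 and at 20 months. Filled points were called at an adjusted p under 0.05; Arsb lies farthest to the right at both ages (2.74 and 2.82), and Ctsd is called at 6 months (1.06) and not at 20 months (-0.30).

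The marker lists moved with these contrasts. The 8 osteoclast markers summed to 283 to 503 TPM in 6-month and 706 to 739 TPM in 20-month 2-day libraries, against 9328 to 14411 and 17857 to 27774 TPM in the matching large-cell libraries. The 8 stromal and fibroblast markers summed to 1739 to 2102 TPM (6 months) and 709 to 928 TPM (20 months) at 2 days, and to 662 to 1158 and 3445 to 4377 TPM in large cells. Their part in the lysosomal differences was not tested. Scaling also mattered: with TPM as deposited the median of all genes shifted by -0.343 at 6 months and -0.109 at 20 months, and members called were 19 higher and 3 lower at 6 months and 15 higher and 4 lower at 20 months, while all tested genes split into 1627 higher and 5323 lower at 6 months and 1683 and 2546 at 20 months.

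Genes of the same pathway that are no members were counted in the same way, and whether they differ from the members was not tested. Of 28 other lysosomal genes tested, 22 rose and 1 fell at 6 months, and 19 rose and 1 fell at 20 months. Among these, Acp5 rose by 8.19 ± 0.31 and Ctsk by 6.99 ± 0.27 at 6 months, far more than any member. Of 33 regulators and sorting factors, 20 rose and 2 fell at 6 months, and 13 rose and 1 fell at 20 months. The transcription factor Mitf rose by 1.81 ± 0.16 at 6 months (from 4.68 to 16.4 TPM) and by 1.09 ± 0.16 at 20 months. Tfeb rose by 1.35 ± 0.30 at 6 months and differed by 0.43 ± 0.30 at 20 months (adjusted p = 0.292), and Tfe3 was not called at either age (-0.05 ± 0.11 and -0.15 ± 0.11). The sorting receptor Sort1 fell, by 0.76 at 6 months and 1.83 at 20 months on the log2 scale.

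At 2 days the older cultures had more lysosomal transcript. Comparing 20-month with 6-month wild-type 2-day cultures, 22 of 39 members were higher and 1 lower, with a median log2 difference of 0.45 against 0.0088 over all genes; 8.54% of all tested genes were called higher and 8.77% lower (17.3% in all). The 22 were 6 of 10 proteases, 11 of 14 glycosidases and sulfatases, 2 of 7 of the lipid group and 3 of 8 membrane proteins. On the deposited scale the 2 groups did not overlap in 33 of the 39 members, against 50.8% of all tested genes. Leaving out single libraries lowered the total of 23 to 13 (6-month replicate 2), 14 (20-month replicate 3 or 4) and 15 (6-month replicate 1).

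Gpnmb, at 163, 140.5 and 188 TPM at 6 months and 341, 381 and 373 TPM at 20 months, rose by 1.14 ± 0.20 (adjusted p = 0.000355). Ctss was 858, 841 and 903 TPM at 6 months and 1617, 1833 and 1716 TPM at 20 months and rose by 0.97 ± 0.14 (adjusted p = 6.45e-05). Ctsd was 3881, 3864 and 4492 TPM at 6 months and 7128, 7661 and 7032 TPM at 20 months and rose by 0.81 ± 0.16 (adjusted p = 0.00117). For these 3 genes every 20-month library was above every 6-month one. Lipa rose by 0.73 ± 0.20 (adjusted p = 0.0135), a call that ended without 20-month replicate 3 (0.68, adjusted p = 0.0602) or without 6-month replicate 1 (0.70, adjusted p = 0.0518) or 2 (0.69, adjusted p = 0.0581).

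Smpd1 fell, at 31.4, 30.3 and 34.2 TPM at 6 months and 26.1, 23.4 and 22.2 TPM at 20 months, with a difference of -0.43 ± 0.13 (adjusted p = 0.0273). Its groups did not overlap, but leaving out 20-month replicate 3 or 4, or 6-month replicate 1, 2 or 3, ended the call (-0.38 to -0.46, adjusted p = 0.0513 to 0.0986). The 2-day groups also differed in osteoclast markers (283 to 503 against 706 to 739 TPM), macrophage markers (1387 to 1500 against 1856 to 2109 TPM), B cell markers (2.34 to 6.51 against 83.0 to 106 TPM), mast cell and basophil markers (37.1 to 44.7 against 15.6 to 30.8 TPM) and the stromal markers given above. The B cell sums were mostly Igkc, and the mast cell and basophil sums nearly all Mcpt8. The part of these markers in the lysosomal difference was not tested. Among 28 other lysosomal genes 10 rose and 3 fell with age at 2 days, and among the 33 regulators and sorting factors 5 rose and 1 fell.

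Among wild-type large-cell cultures age moved fewer members, and mostly down from 1 month. The 3 age contrasts share groups, and the 1-month group differed in Xist as given above. From 1 to 6 months limma called 0 members higher and 9 lower (1 and 12 at an unadjusted p under 0.05; 3.87% and 5.71% of all tested genes called, 9.58% in all), with a median of -0.18 against -0.020 over all genes. From 1 to 20 months 5 rose and 12 fell (9.2% and 13.0% of all genes, 22.2% in all), with a median of -0.04. From 6 to 20 months 8 rose and 5 fell (12.7% and 14.9% of all genes, 27.6% in all), with a median of 0.17. Marker sums moved with age as well. At 1, 6 and 20 months the osteoclast markers summed to 10369.6 to 12819, 9328 to 14411 and 17857 to 27774 TPM and the stromal markers to 582 to 2666, 662 to 1158 and 3445 to 4377 TPM, with the 20-month sums above all others in both. The osteoclast sums were mostly Acp5, Ctsk and Mmp9, and the stromal sums mostly Col1a1, Col1a2 and Postn. Dcstamp, from the osteoclast list, was lower at 20 than at 1 month (62.6 to 93.7 against 113 to 126 TPM). Dcn, from the stromal list, was lower as well (0.248 to 1.18 against 6.12 to 9.85 TPM). At 1, 6 and 20 months the macrophage markers were 1166 to 1513, 656 to 1654 and 1305 to 1593 TPM, which overlapped, and the neutrophil markers 18.4 to 58.6, 17.7 to 65.9 and 2.99 to 17.9 TPM. The neutrophil sums were nearly all S100a8. The dendritic cell markers were 22.7 to 32.5, 7.46 to 17.5 and 5.78 to 8.63 TPM and the mast cell and basophil markers 1.38 to 3.02, 6.04 to 15.7 and 26.0 to 35.1 TPM. The dendritic cell sums were mostly Itgax, and the mast cell and basophil sums nearly all Mcpt8. Zbtb46, from the dendritic cell list, overlapped across the ages (0.878 to 1.66, 0.359 to 1.51 and 1.41 to 1.60 TPM). The part of these markers in the lysosomal differences was not tested.

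Gpnmb was highest at 1 month, 1933, 2224 and 1918 TPM, and lower at 6 months (866, 238 and 507 TPM) and 20 months (569, 673 and 789 TPM). The 1-month libraries were all above those of both later ages, and the falls were -1.94 ± 0.20 (adjusted p = 4.98e-07) by 6 months and -1.72 ± 0.20 (adjusted p = 9.95e-07) by 20 months. The 6-month and 20-month Gpnmb libraries overlapped. Ctss was 2417, 2194 and 2099 TPM at 1 month, 1378, 535 and 1088 TPM at 6 months and 1273, 1329.9 and 1453 TPM at 20 months, with log2 differences from 1 month of -1.10 ± 0.14 (adjusted p = 1.64e-05) and -0.85 ± 0.14 (adjusted p = 0.000119). Ctsl, a cysteine protease of broad range, was 2399.8, 2356 and 2220.0 TPM, then 1428, 1041 and 1314 TPM, then 1042, 1013 and 1019 TPM. Ctsl differed by -0.73 ± 0.14 (adjusted p = 0.00184) by 6 months and -1.31 ± 0.14 (adjusted p = 3.94e-07) by 20 months, with every 1-month library above all of the older ones.

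Lipa fell as well, from 299, 395 and 377 TPM at 1 month to 158, 142 and 215 TPM at 20 months (-1.19 ± 0.20 (adjusted p = 0.000119)), and these groups did not overlap. Ids, the sulfatase lost in Hunter syndrome, was called lower at 6 than at 1 month (-0.88 ± 0.27 (adjusted p = 0.0432)), with 17.7, 27.0 and 33.9 TPM at 1 month and 26.1, 3.79 and 16.2 TPM at 6 months. Without 6-month replicate 2, the library at 3.79 TPM, the Ids difference was -0.33 (adjusted p = 0.291), and without 1-month replicate 3 or 4 the adjusted p was 0.112 or 0.170. Members higher at 20 than at 1 month were led by Idua (alpha-iduronidase, 0.48 ± 0.11 (adjusted p = 0.0032)), Lgmn (legumain, an asparaginyl endopeptidase, 0.45 ± 0.12 (adjusted p = 0.00806)), Sgsh (heparan sulfamidase, 0.40 ± 0.13 (adjusted p = 0.0273)) and Psap (0.37 ± 0.12 (adjusted p = 0.0242)). The Sgsh call ended without 1-month replicate 1 or 3 or 20-month replicate 3 (0.31 to 0.39, adjusted p = 0.0618 to 0.142), and the Psap call without 1-month replicate 3 or 4 or 20-month replicate 1 or 4 (0.30 to 0.36, adjusted p = 0.0703 to 0.0930).

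Between 6 and 20 months Lgmn (0.59 ± 0.12 (adjusted p = 0.00129)), Manba (beta-mannosidase, 0.56 ± 0.16 (adjusted p = 0.0125)), Sgsh (0.53 ± 0.13 (adjusted p = 0.00447)) and Naglu (0.47 ± 0.17 (adjusted p = 0.045)) had the largest rises. Fuca1 (-0.76 ± 0.21 (adjusted p = 0.0108)), Ctsl (-0.58 ± 0.14 (adjusted p = 0.00526)), Ctsd (-0.55 ± 0.16 (adjusted p = 0.0171)) and Gusb (-0.53 ± 0.11 (adjusted p = 0.00176)) had the largest falls. None of the 13 members was called when each group had its own variance or when the limma fit held only the groups compared (12 and 6 members at an unadjusted p under 0.05). The total also depended on the 6-month libraries: 26 members were called without replicate 1 and 8 without replicate 2. Without replicate 2 the differences were 0.30 for Manba (adjusted p = 0.112), -0.49 for Fuca1 (adjusted p = 0.0954) and -0.35 for Ctsd (adjusted p = 0.101), and the largest loss for Naglu was without replicate 4 (0.26, adjusted p = 0.225). With TPM as deposited 14 members were higher and 2 lower at 20 than at 6 months, the median of all genes having shifted by 0.253 and their calls splitting into 2519 higher and 1019 lower. From 1 to 20 months that shift was 0.113, with 6 members higher and 9 lower and all genes split into 1248 higher and 1076 lower. From 1 to 6 months none of the 9 members was called when the limma fit held only the groups compared (5 at an unadjusted p under 0.05), with adjusted p of 0.163 for Gpnmb, 0.529 for Ctss, 0.775 for Ctsl and 0.846 for Ids. With a variance for each group 2 were called, and Ctsl (adjusted p = 0.634) and Ids (adjusted p = 0.668) were not. The total of 9 was 16 without 6-month replicate 1 and 5 without 1-month replicate 3 or 4.

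Unmarked Terc-/- large cells had higher levels of many members than wild type of the same age. At 1 month 19 members were higher and 2 lower in Terc-/- (15.4% and 15.6% of all tested genes, 30.9% in all), with a median log2 difference of 0.29 against 0.0019 over all genes. At 6 months limma called 25 higher and 0 lower (28 and 0 at an unadjusted p under 0.05; 15.7% and 13.1% of all genes called, 28.8% in all), with a median of 0.54 against 0.023. At 1 month the higher members were 4 of 10 proteases, 9 of 14 glycosidases and sulfatases, 3 of 7 of the lipid group and 3 of 8 membrane proteins, and at 6 months 6, 10, 3 and 6. Of these, 16 were called higher at both ages: Ctsa, Ctsb, Ctsd, Gaa, Gla, Gusb, Galns, Idua, Naglu, Neu1, Sgsh, Lipa, Acp2, Npc1, Mcoln1 and Gpnmb. The 1-month wild-type group is the one with Xist, so sex and genotype cannot be told apart there.

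Ctsd was 7616, 7289 and 6375 TPM in 1-month wild-type and 15378, 14825 and 13990.5 TPM in 1-month Terc-/- libraries, a log2 difference of 1.09 ± 0.16 (adjusted p = 2.31e-05). At 6 months it was 6863, 6302 and 6248 TPM in wild-type and 11831, 12049.8 and 13722 TPM in Terc-/- libraries (0.82 ± 0.16 (adjusted p = 0.000568)). At both ages the lowest Terc-/- library was above the highest wild-type one. Ctsb, a cysteine protease of the same compartment, was 1466, 1435 and 1423 against 2919, 2843 and 2656 TPM at 1 month (0.99 ± 0.11 (adjusted p = 9.02e-07)) and 1552, 924 and 1173 against 2246, 2075 and 2001 TPM at 6 months (0.69 ± 0.11 (adjusted p = 7.3e-05)), again without overlap.

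Gpnmb was 3874, 3918 and 3644 TPM in 1-month Terc-/- libraries, the highest of any group, against 1933, 2224 and 1918 TPM in wild type (0.95 ± 0.20 (adjusted p = 0.000836)). At 6 months it was 2155, 1797 and 1898 TPM in Terc-/- libraries against the wild-type values above (1.91 ± 0.20 (adjusted p = 2.67e-07)). Sgsh was 12.3, 16.9 and 19.4 against 31.4, 29.8 and 30.7 TPM at 1 month (0.93 ± 0.13 (adjusted p = 8.9e-06)) and 19.1, 9.81 and 11.4 against 32.2, 33.1 and 21.1 TPM at 6 months (0.95 ± 0.13 (adjusted p = 8.24e-06)). The Sgsh groups did not overlap at either age. At 6 months Naglu differed by 0.89 ± 0.17 (adjusted p = 0.000439) and Ctss by 0.83 ± 0.14 (adjusted p = 0.000139).

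The 2 members lower in 1-month Terc-/- cells were Asah1 (-0.57 ± 0.19 (adjusted p = 0.0242)) and Ctsc (-0.48 ± 0.17 (adjusted p = 0.0295)). The Asah1 call ended without Terc-/- replicate 3 or 4 or wild-type replicate 3 or 4 (adjusted p = 0.0613 to 0.0659), and the Ctsc call without Terc-/- replicate 3 or 4 or any 1 of the wild-type replicates (adjusted p = 0.0581 to 0.0995). At 6 months none of the 25 members was called when the limma fit held only the 6 libraries compared (14 at an unadjusted p under 0.05), and 6 were with a variance for each group. In the former fit the adjusted p was 0.0598 for Gpnmb, 0.127 for Sgsh, 0.201 for Naglu and 0.196 for Ctss. The macrophage markers summed to 1852 to 2123 TPM (1 month) and 2514 to 2796 TPM (6 months) in Terc-/- libraries, against 1166 to 1513 and 656 to 1654 TPM in wild type. Mrc1, from the same list, was lower in Terc-/- libraries at 1 month (3.25 to 4.76 against 6.70 to 11.1 TPM) and overlapped at 6 months. Fcgr1 overlapped at both ages. The stromal markers summed to 113 to 213 and 274 to 929 TPM in Terc-/- libraries, against 582 to 2666 and 662 to 1158 TPM, and the 6-month sums overlapped. These sums were mostly Col1a1, Col1a2 and Postn. Dcn, from the same list, was higher in Terc-/- libraries, at 20.1 to 28.3 against 6.12 to 9.85 TPM at 1 month. At 6 months Dcn was 65.3 to 98.2 against 1.03 to 2.51 TPM, and Lum, under 1 TPM, was also higher in Terc-/- libraries. The neutrophil markers summed to 62.5 to 74.7 and 94.0 to 203 TPM in Terc-/- libraries, against 18.4 to 58.6 and 17.7 to 65.9 TPM, and these sums were nearly all S100a8. Saa3, which encodes an acute-phase protein, differed by 4.43 ± 0.68 (adjusted p = 3.76e-05) at 6 months and by -0.01 ± 0.68 at 1 month. The osteoclast marker sums overlapped between genotypes at both ages. At 1 month, however, Ctsk was lower in Terc-/- libraries (2518 to 2995 against 3998 to 4859 TPM). Mmp9 (1825 to 2314 against 1218 to 1368 TPM), Ocstamp and Calcr were higher there without overlap. Acp5, Dcstamp, Atp6v0d2 and Oscar overlapped at that age. In 6-month Terc-/- replicate 4 the osteoclast markers summed to 4531 TPM, against 10616 and 11096 TPM in replicates 1 and 2. Without that library 24 members were higher and 0 lower in limma (28 and 0 at an unadjusted p under 0.05). The part of these markers in the result was not tested.

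The genotype difference itself changed with age in 2 members. The difference at 6 months minus that at 1 month was 0.93 ± 0.20 (adjusted p = 0.00852) for Ctss and 0.66 ± 0.16 (adjusted p = 0.0191) for Man2b1 (lysosomal alpha-mannosidase), with 2.79% of all tested genes called higher and 0.785% lower in that test (3.58% in all). Ctss was 2139, 2080.3 and 1895 TPM in 1-month Terc-/- libraries against 2417, 2194 and 2099 TPM in wild type, and 1806, 1907 and 1722 TPM at 6 months against 1378, 535 and 1088 TPM. The total of 2 was 8 without 6-month wild-type replicate 1, 4 without 1-month wild-type replicate 1 and 1 without 6-month Terc-/- replicate 2, where Man2b1 was 0.62 (adjusted p = 0.0532). Neither was called in the limma fit of only the groups compared or with a variance for each group (4 and 5 members at an unadjusted p under 0.05).

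Other lysosomal genes gave 11 higher and 1 lower of 28 at both ages in Terc-/- cells. Of the 33 regulators and sorting factors, 14 were higher and 1 lower at 1 month and 10 higher and 0 lower at 6 months. Tfeb was higher at 1 month by 1.06 ± 0.30 (22.8 against 10.7 TPM) and not called at 6 months (0.31 ± 0.30). Tfe3 was higher at both ages (0.37 ± 0.11 and 0.53 ± 0.11), Plekhm1, which tethers lysosomes to their fusion partners, likewise (0.87 ± 0.14 and 0.57 ± 0.14). Tfec was lower at 1 month (-0.78). Of the members with CACGTG in the promoter window 7 of 10 were higher at 1 month and 9 of 10 at 6 months, against 9 and 13 of the 24 without it. The split varied between contrasts. With the 519 mark at 1 month 3 of 10 and 9 of 24 were higher, and with the gaiwei mark 8 of 10 and 12 of 24. From 1 to 6 months in wild-type large cells 1 of 10 and 7 of 24 were lower. These counts were not tested.

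**Figure D4:**
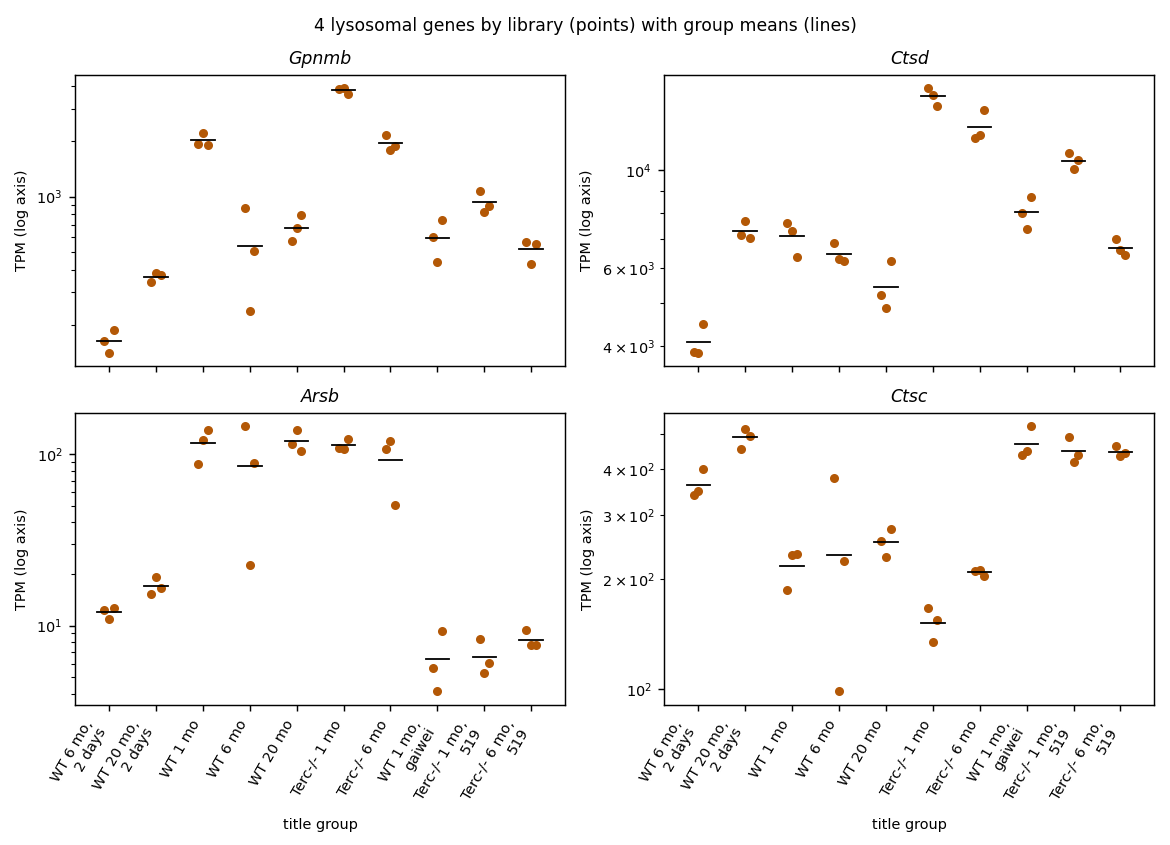
TPM (vertical axes, log scale) of Gpnmb, Ctsd, Arsb and Ctsc in the 10 title groups, with 1 point per library and a line at each group mean. Gpnmb is highest in the unmarked 1-month Terc-/- group (3644 to 3918 TPM), and Arsb is at most 9.44 TPM in the 9 marked libraries against at least 22.5 TPM in the 15 unmarked large-cell ones.

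Between 1 and 6 months within Terc-/- cells the unmarked and the 519 groups gave different counts. In the unmarked groups limma called 0 members higher and 3 lower (1 and 8 at an unadjusted p under 0.05; 2.93% and 1.05% of all tested genes called, 3.98% in all). Gpnmb differed by -0.97 ± 0.20 (adjusted p = 0.00406), without overlap between 3874, 3918 and 3644 TPM and 2155, 1797 and 1898 TPM. Ctsh differed by -0.57 ± 0.16 (adjusted p = 0.0442) and Ctsb by -0.41 ± 0.11 (adjusted p = 0.035). The Ctsh call ended without any 1 of the 6 libraries (adjusted p = 0.0680 to 0.196) and the Ctsb call without 1-month replicate 1 or 3 or 6-month replicate 2 or 4 (adjusted p = 0.126 to 0.192), which left 1 member.

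In the 519 groups limma called 0 members higher and 22 lower at 6 months (0 and 26 at an unadjusted p under 0.05), with a median of -0.42 against -0.010 over all genes. Of all tested genes 12.0% were called higher and 11.8% lower (23.9% in all). The falls covered 7 of 10 proteases, 9 of 14 glycosidases and sulfatases, 3 of 7 of the lipid group and 3 of 8 membrane proteins. Lgmn was 387, 342 and 382 TPM at 1 month and 171, 152 and 174 TPM at 6 months (-1.34 ± 0.12 (adjusted p = 4.31e-08)). Ctsh was 478, 425 and 506 TPM and then 195, 195 and 239 TPM (-1.35 ± 0.16 (adjusted p = 2.48e-06)), and Lipa 306, 262 and 286 TPM and then 140.0, 102 and 147 TPM (-1.33 ± 0.20 (adjusted p = 4.28e-05)). None of these 3 genes had overlapping groups, and Gpnmb differed by -1.03 ± 0.20 (adjusted p = 0.000636). Whether the age difference of the 519 groups differs from that of the unmarked groups was not tested. With TPM as deposited 13 members were lower and 0 higher, the median of all genes having shifted by 0.151 and their calls splitting into 1393 higher and 729 lower. The macrophage markers summed to 4116 to 4574 TPM at 1 month and 5214 to 5965 TPM at 6 months in these groups. Cd14 and Itgam were higher at 6 months. Cx3cr1 (72.3 to 86.4 and then 20.4 to 31.3 TPM), Fcgr1 and Mertk were lower, and Adgre1, Csf1r and Mrc1 overlapped. The osteoclast markers summed to 644 to 678 and 1216 to 2131 TPM, mostly Mmp9 (454 to 521 and 1008 to 1868 TPM). Ctsk, Dcstamp, Ocstamp and Oscar were also higher at 6 months, and Acp5 (119 to 147 and 113 to 145 TPM), Atp6v0d2 and Calcr overlapped. The part of these markers was not tested.

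Marked 1-month Terc-/- and wild-type libraries, both low in Acp5, differed in 2 members. Against 1.58% of all tested genes higher and 1.87% lower (3.45% in all), Lipa was higher in 519 Terc-/- libraries (306, 262 and 286 TPM) than in gaiwei wild type (154, 87.4 and 200.5 TPM), by 0.97 ± 0.20 (adjusted p = 0.00531). Ctsb was 2167, 1975 and 1986 TPM in 519 Terc-/- against 1361, 1297 and 1640.1 TPM in gaiwei wild type (0.46 ± 0.11 (adjusted p = 0.0203)). Neither gene's groups overlapped. Without gaiwei replicate 2 the Lipa difference was 0.69 (adjusted p = 0.0725) and limma called 0 members (10 at an unadjusted p under 0.05); the Ctsb call ended without 519 replicate 1, 2 or 3 or gaiwei replicate 1 or 2 (adjusted p = 0.0506 to 0.0861). The total was 8 with a variance for each group and 4 with TPM as deposited, where Lipa was not among them (1.02, adjusted p = 0.0566).

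Marked and unmarked libraries of the same genotype and age were compared in 3 contrasts. The 519 libraries had 14 members higher and 5 lower at 1 month (18.5% and 15.1% of all tested genes, 33.6% in all) and 5 higher and 14 lower at 6 months (14.4% and 13.8% of all genes, 28.2% in all), and the gaiwei libraries had 23 higher and 5 lower (24.2% and 22.4% of all genes, 46.5% in all). These directions depended on the scaling. With TPM as deposited the median of all genes shifted by -0.399, -0.250 and -0.488, and the members split into 6 higher and 19 lower, 2 higher and 21 lower, and 7 higher and 12 lower. All genes then split into 878 higher and 4812 lower, 884 and 3418, and 1225 and 6250. The groups did not overlap for 31, 33 and 21 of the 39 members on the deposited scale, against 67.7%, 57.7% and 60.1% of all tested genes.

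**Figure D5:**
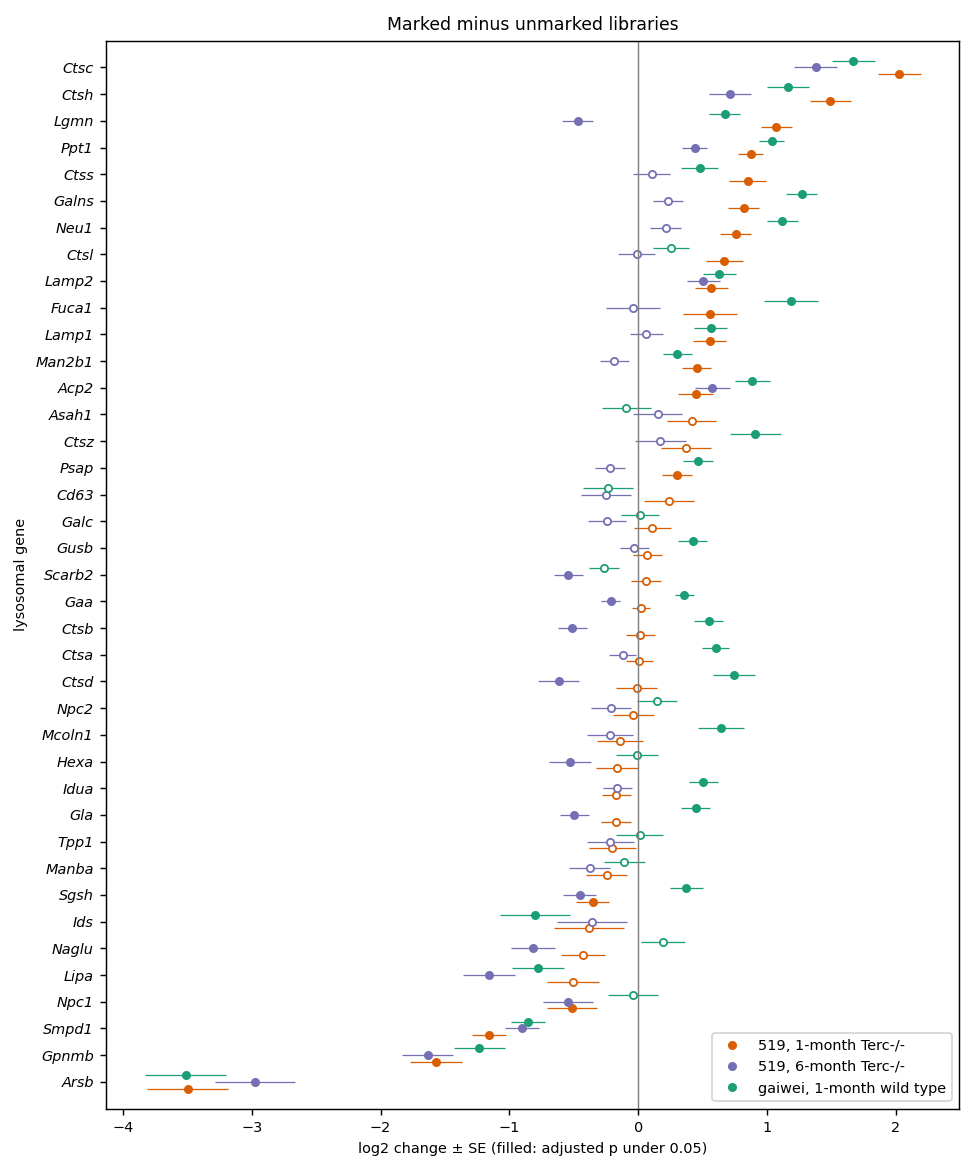
Log2 difference between marked and unmarked large-cell libraries (horizontal axis, scaled TPM; bars are standard errors) for each lysosomal gene (vertical axis), in 1-month Terc-/-, 6-month Terc-/- and 1-month wild-type cells. Arsb lies farthest to the left in all 3 (-3.50, -2.97 and -3.51), and Ctsc farthest to the right (2.03, 1.38 and 1.67).

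A few members kept 1 direction in all 3 contrasts under both scalings. Arsb was 108, 107 and 122 TPM in unmarked and 8.34, 5.31 and 6.08 TPM in 519 libraries of 1-month Terc-/- cells (-3.50 ± 0.31 (adjusted p = 5.22e-09)). In 6-month Terc-/- cells it was 107, 119 and 50.3 and 9.44, 7.70 and 7.69 TPM (-2.97 ± 0.31 (adjusted p = 9.42e-08)), and in 1-month wild-type cells 87.1, 120.2 and 139 and 5.69, 4.13 and 9.30 TPM (-3.51 ± 0.31 (adjusted p = 2.55e-09)). All 9 marked Arsb values lay below those of the 2-day libraries, the lowest of which was 10.9 TPM. Gpnmb (-1.57, -1.63 and -1.23) and Smpd1 (-1.16, -0.91 and -0.85) were the other 2 called lower in all 3 with either scaling.

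Ctsc and Ctsh were called higher in all 3 with either scaling. Ctsc was 167, 135 and 155 TPM in unmarked and 489.9, 418 and 436 TPM in 519 libraries at 1 month (2.03 ± 0.17 (adjusted p = 1.13e-09)), and the wild-type libraries went from 187, 232 and 234 TPM unmarked to 437, 447 and 523 TPM with the mark (1.67 ± 0.17 (adjusted p = 1.33e-08)). At 6 months it differed by 1.38 ± 0.17 (adjusted p = 6.03e-07). Ctsh differed by 1.49 ± 0.16, 0.71 ± 0.16 and 1.16 ± 0.16. Ppt1, Acp2 and Lamp2 were also called higher in all 3, but on the scaled values alone.

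Some members were called in opposite directions in different contrasts on the scaled values: Ctsb, Ctsd, Lgmn, Gaa, Gla and Sgsh. Lgmn was higher with the mark in 1-month Terc-/- (1.07 ± 0.12 (adjusted p = 1.87e-07)) and 1-month wild-type cells (0.67 ± 0.12 (adjusted p = 6.55e-05)) and lower in 6-month Terc-/- cells (-0.47 ± 0.12 (adjusted p = 0.00448)). In gaiwei wild-type cells Galns (a galactosamine sulfatase) and Fuca1 were among the largest rises (1.27 ± 0.12 and 1.19 ± 0.21), and Ids was lower (-0.80 ± 0.27 (adjusted p = 0.018)), a call that ended without gaiwei replicate 1 or 2 or unmarked replicate 4 (adjusted p = 0.0611 to 0.0855). Lipa was lower at 6 months (-1.16 ± 0.20 (adjusted p = 8.66e-05)), and Npc1, the cholesterol transporter of the lysosomal membrane, at 1 month in Terc-/- cells (-0.51 ± 0.19 (adjusted p = 0.0423)). The Npc1 call ended without 519 replicate 2 or 3 or any 1 of the unmarked libraries (adjusted p = 0.0535 to 0.121). Tpp1, Manba, Galc, Asah1, Npc2 and Cd63 were called in none of the 3 on the scaled values, but with TPM as deposited Manba, Npc2 and Cd63 were called lower in all 3, as were Hexa, Naglu and Lipa.

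Of the 28 other lysosomal genes 8 rose and 8 fell in 1-month Terc-/-, 4 and 14 in 6-month Terc-/- and 10 and 7 in 1-month wild-type cells with the mark. Of the 33 regulators and sorting factors these counts were 10 and 8, 6 and 7, and 17 and 3. Rragd, a Rag GTPase of the lysosomal surface that is a known TFEB-family target, fell in all 3 (-1.37, -1.65 and -1.60), as did the sorting adaptor Gga2 (-1.16, -1.79 and -1.62) and Mitf (-0.50, -0.83 and -0.75). Osteoclast markers summed to 644 to 2131 TPM in the marked libraries against 4531 to 27774 TPM in all unmarked large-cell ones. In the marked libraries most of this sum was Mmp9, which overlapped (454 to 1868 against 986 to 3810 TPM). Every other osteoclast marker listed was lower in all marked libraries than in any unmarked large-cell one, Dcstamp at 0.771 to 2.04 against 40.2 to 174 TPM. The macrophage sum was higher in the marked libraries, through some of its markers, as given above. Neutrophil markers summed to 1200 to 3296 TPM in the marked and 2.99 to 203 TPM in the unmarked large-cell libraries. Nearly all of this sum was S100a8, at 1193 to 3293 TPM in the marked libraries. There S100a9 was at most 2.65 TPM and Elane was 0, so the sum mostly reports 1 gene. Camp, at 2.78 to 7.96 TPM in the marked libraries, was also above the unmarked large-cell ones (at most 1.43 TPM). The acute-phase gene Saa3 was 24105 to 81892 TPM in the marked libraries and at most 6463 TPM in any other. The part of these differences in the lysosomal results was not tested.

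Counting at overlapping genes limits some values, since the strand setting of the counting was not given. In GENCODE M21, 19 of the 39 members overlap another gene on either strand and 20 do not. Ctsd lies at chr7:142375911-142388038 on the minus strand and overlaps the same-strand model Gm49369, Ctsb overlaps Fdft1, and Acp2 overlaps Ddb2, both on the opposite strand. Arsb overlaps Mir5624 on the same strand and Gm25534, Gm26527 and Gm47210 on the opposite strand. Ctss overlaps the same-strand Hmgb1-ps5. Ctsc, Hexa and Sgsh overlap Gm26522, Tmem202 and Card14 in that order, all on the opposite strand. Gpnmb (chr6:49036546-49070929, plus strand), Lipa (chr19:34492318-34527474, minus strand) and Smpd1 (chr7:105554360-105558389, plus strand) overlap none.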

How the data were processed

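The deposited tables hold 30 libraries of poly(A)-selected RNA read on an Illumina instrument, per the labels' protocols. The values are TPM made by the authors: the table headers name no unit, and TPM was read from the values, since every column has the same total and low values share no common step, so whole reads could not be recovered. HTSeq and mm10 are named in the submitters' processing notes; an aligner was not given in the sources used here. The depth per library is unknown from TPM, so no counting interval is given. Of 45706 gene identifiers 45143 matched GENCODE M21 and gave the symbols, and 563 did not. No pair of libraries was identical.

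Libraries were brought to a common scale with an unweighted trimmed mean of log ratios, leaving out 30% of the ratios and 5% of the levels from either tail, and log2(scaled TPM + 1) was analysed. A gene entered the fit if its mean over the 30 libraries reached 1 TPM. The fit used limma 3.58.1 in R 4.3.3 (10 group means, empirical Bayes with trend and robust settings, 14 contrasts and 2 interactions, two-sided). P-values were adjusted by Benjamini-Hochberg over the 12614 genes within a contrast, and 0.05 was the threshold. The code was tested on simulated data. Tables and plots used Python 3.11.15, pandas 2.3.3, numpy 2.4.6 and matplotlib 3.10.9.

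The members and lists were chosen with earlier results of these data known. Per-library values are given for the 2 most abundant members of each role and, per contrast, for up to 4 called members with the largest rise and up to 4 with the largest fall, in a selection; other members named are given by their differences. Alternatives were TPM as deposited, a pseudocount of 0.1, no filter on low values, only the groups compared, a variance for each group, the replicate block, and leaving out each library.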

Additional observations from a re-analysis of the deposited data

Results flagged for a closer look

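Of the 17 members whose change from 2-day to large-cell culture differed between 20 and 6 months in the test of that difference, 6 are given here, on the log2 scale with standard errors and limma adjusted p. Smpd1 rose more at 20 months, by 0.58 ± 0.19 (adjusted p = 0.0265), and so did Gaa, by 0.33 ± 0.10 (adjusted p = 0.0223). The 4 largest differences in the other direction were Fuca1 at -1.45 ± 0.30 (adjusted p = 0.00102), Ctsd at -1.36 ± 0.23 (adjusted p = 0.000151), Lipa at -1.21 ± 0.28 (adjusted p = 0.00311) and Gusb at -1.10 ± 0.16 (adjusted p = 2.99e-05). For Lipa the 2 changes had opposite signs and both were called, 0.63 ± 0.20 at 6 months and -0.58 ± 0.20 at 20 months, the second of them lost without any 1 of 4 libraries. The 6-month groups overlapped, at 157, 155 and 181 TPM at 2 days and 327, 106 and 208 TPM in large cells, and with TPM as deposited the difference between the changes was -0.95 (adjusted p = 0.0895). In 2 members the difference between unmarked Terc-/- and wild-type large cells was larger at 6 than at 1 month: Ctss by 0.93 ± 0.20 (adjusted p = 0.00852) and Man2b1 by 0.66 ± 0.16 (adjusted p = 0.0191).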

How the results depend on the processing

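Of the 89 named member results, 0 reversed over 1116 alternatives and 142 of those alternatives ended the call; 67 results kept it without each library in turn and 51 under every alternative. Counts of members called moved by over 1.5 times as follows. With only the groups compared in the fit they were 21 in place of 32 (differentiation, 6 months), 0 in place of 9 (6 against 1 month, wild type), 11 in place of 17 (20 against 1 month), 0 in place of 13 (20 against 6 months), 0 in place of 25 (genotype, 6 months), 11 in place of 17 (differentiation by age) and 0 in place of 2 (genotype by age). With a variance for each group they were 2 (6 against 1 month), 0 (20 against 6 months), 6 (genotype, 6 months), 8 in place of 2 (marked genotype), 5 in place of 3 (Terc-/- age, unmarked), 9 (differentiation by age) and 0 (genotype by age). With TPM as deposited they were 4 (marked genotype), 13 in place of 22 (Terc-/- age, 519) and 10 (differentiation by age). Leaving out 1 library gave 13 to 19 in place of 23 (2-day age), 5 to 16 (6 against 1 month), 8 to 26 (20 against 6 months), 0 to 2 (marked genotype), 1 to 3 (Terc-/- age, unmarked) and 1 to 8 (genotype by age). Where this left 2 libraries in a group, the spread came from all groups. Same-numbered libraries were not taken as pairs, since in no contrast with 3 pairs were all correlations of their deviations over 0.1. Contrasts with 2 pairs could not meet this rule, so pairing was not decided for them. Both correlations were over 0.1 in the unmarked Terc-/- age contrast (0.169 and 0.33) and the gaiwei mark contrast (0.229 and 0.246). With the replicate block the totals were 32 and 21 (differentiation at 6 and 20 months), 23 (2-day age), 6, 18 and 14 (wild type 6 against 1, 20 against 1 and 20 against 6 months), 21 and 25 (genotype at 1 and 6 months), 3 (marked genotype), 2 and 22 (Terc-/- age), 17, 18 and 28 (marks) and 17 and 3 (interactions). Depth is not known from TPM, so precision rests on 3 libraries a group.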
